A study of Zea mays with 48 samples.

Results

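A set of 259 maize genes was lower in each organ that stayed at 26 °C while the other end of the plant was chilled. The genes were chosen from 23290 nuclear gene models in the CPM (scaled count) tables that the authors deposited for each tissue. The rule took genes whose log2 ratio of mean CPM + 1 against control was at or under -1 in the warm leaf above a chilled root and also in the warm root below a chilled shoot. The same ratio had to stay under 1 in absolute size in the leaf under shoot-only chilling and in the root under root-only chilling, that is, where the organ itself was chilled. These 4 comparisons chose the genes, so their values are given below as a description and carry no test.

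The libraries came from B73 seedlings, an inbred line, grown to the three-leaf stage, and each combination of 4 tissues (leaf, root, top crown, bottom crown) with 4 conditions had 3 libraries. Control plants (26S26R) had the shoot and the root at 26 °C. Chilling lasted 24 h. Whole-plant chilling (4S4R) put both ends at 4 °C, shoot-only chilling (4S26R) combined a 4 °C shoot with a 26 °C root, and root-only chilling (26S0R) combined a 26 °C shoot with a root at 0 °C. The chilled root was therefore colder in root-only than in whole-plant chilling. The labels give no temperature for the crown, and they do not say whether a library holds 1 plant or several, or whether tissues came from the same plants.

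Maize is a crop of tropical origin and is sensitive to chilling. Shoot and root depend on each other: water, mineral nutrients and hormones such as cytokinins and abscisic acid move up the xylem, and sugars and other signals move down the phloem. Chilling of the root is known to slow its water uptake, and chilling of the shoot is known to slow export of sugar. The crown is the junction between shoot and root, and in a seedling it holds the shoot apical meristem.

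The deposited identifiers are not paired with gene names. The name table used here matched 0 of the 259 genes, so pathway lists and tissue markers could not be filled, and no function is given to any gene. Identifiers are printed only by a fixed rule on level and size of change. In bulk tissue, fewer cells of a type and less RNA per cell cannot be told apart. Values are uncertain for a gene that overlaps another, lies opposite an antisense gene or has a close paralog, since reads may be split or shared among them.

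Total counts per library ran from 3449880 to 8633854. The scaling factors implied by the deposited CPM ran from 0.765 to 1.43 and were not even between groups: the 3 leaf libraries of root-only chilling had factors from 1.18 to 1.43, and the leaf control libraries from 0.956 to 1.03. Root whole-plant replicate 1 stood apart from its group, with chi-square values of 34.7 and 29.3 per degree of freedom against replicates 2 and 3, for which the mutual value was 13.0. Counts, overlaps and fold changes of the root under whole-plant chilling are given with and without it.

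Of the nuclear gene models, 2430 passed the limit in the warm leaf (10.4%), 1949 passed it in the warm root (8.37%) and 388 passed both. The limits on the chilled organs then left out 129 genes. Among these, 76 were also at or under -1 in the leaf under shoot-only chilling and 24 in the root under root-only chilling, while 22 and 29 were at or over 1 there.

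In the warm leaf above a chilled root, the median log2 change of the 259 genes was -1.54, with quartiles at -2.13 and -1.26 and a lowest value of -4.74. In the warm root below a chilled shoot the median was -1.34, with quartiles at -1.63 and -1.16 and a lowest value of -3.40. The order of the organs depends on the scaling: with library size alone the medians were -1.27 in leaf and -1.48 in root. In the chilled leaf of shoot-only plants the median was -0.22, and 163 genes lay within 0.5 of no change. In the chilled root of root-only plants the median was 0.10, and 179 genes lay within 0.5.

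**Figure D1:**
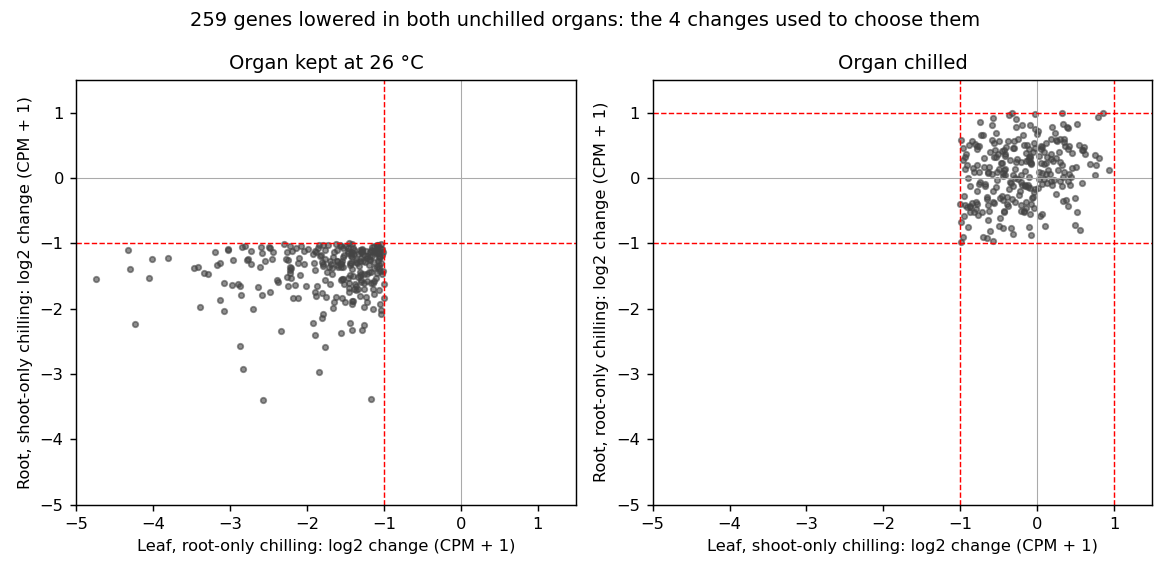
Each point is 1 of the 259 genes, with its log2 change (CPM + 1) in leaf on the horizontal axis and in root on the vertical axis. The left panel shows the organs kept at 26 °C and the right panel the chilled organs. Dashed red lines mark the limits of the rule at -1 and 1, so the empty areas beyond them come from the choice of genes. In the left panel the points reach -4.74 in leaf and -3.40 in root.

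Single libraries are given as a description, since the rule chose genes that were low in the warm organs. The mean over the 259 genes of log2(CPM + 1) was 4.74, 4.59 and 4.68 in the 3 leaf control libraries and 2.85, 3.02 and 2.80 in the 3 leaf libraries of root-only chilling. In root it was 4.17, 3.91 and 3.76 in control and 2.54, 2.53 and 2.44 under shoot-only chilling. Neither pair of groups overlapped, every other leaf library was at 4.17 or above, and every other root library at 3.76 or above. The leaf lay at 4.35 ± 0.16 (SD, n = 3) under whole-plant chilling and at 4.45 ± 0.09 (SD, n = 3) under shoot-only chilling. The root lay at 4.15 ± 0.11 (SD, n = 3) under whole-plant chilling and at 4.04 ± 0.03 (SD, n = 3) under root-only chilling.

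As a share of all counts, the 259 genes took 3.72% to 4.07% in leaf control and 1.41% to 1.94% in leaf under root-only chilling. Shares in root were 1.19% to 1.59% in control and 0.368% to 0.397% under shoot-only chilling. This measure does not use the scaling factors. The rule chose genes that were low in these same libraries, so the gap between the groups follows from the choice.

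**Figure D2:**
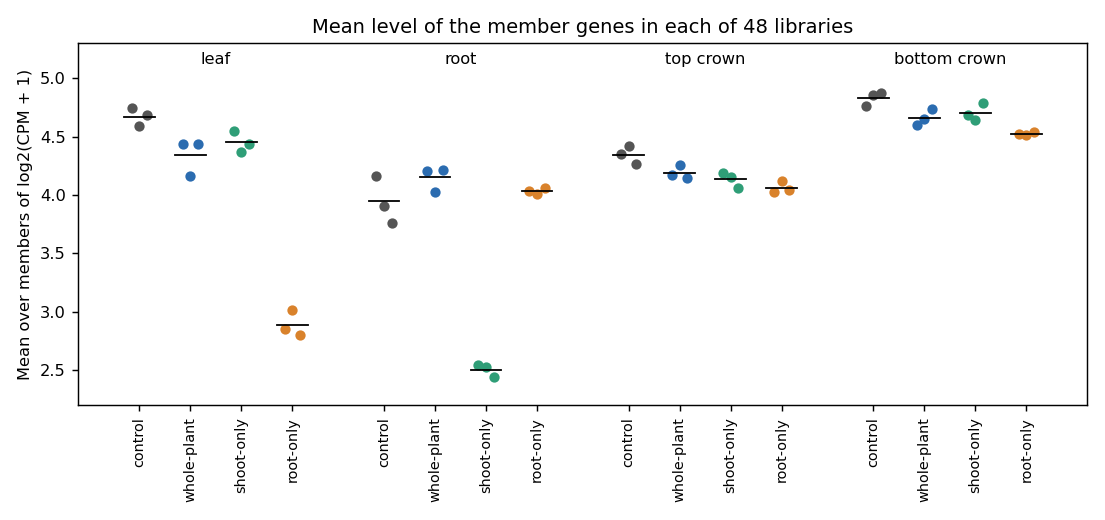
Points are single libraries and bars are the means of 3, with the mean of log2(CPM + 1) over the 259 genes on the vertical axis. The tissues were scaled separately. The leaf under root-only chilling (2.80 to 3.02) and the root under shoot-only chilling (2.44 to 2.54) lie below every other library, and the crown libraries lie between 4.03 and 4.87.

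Gene by gene, 256 of the 259 had all 3 root-only leaf libraries below all 3 control leaf libraries, where 20.4% of all 23290 gene models did. In root, 243 had all 3 shoot-only libraries below all 3 controls, against 20.2% of all gene models. Because the rule used these libraries, nothing is read from the gap. In leaf, 205 genes had their 3 lowest values of the 12 libraries in the root-only group (12.6% of all gene models), and in root 196 had them in the shoot-only group (10.9%).

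Levels under whole-plant chilling, in which both ends were cold, are set beside these as a description that again uses libraries of the rule. For 204 of the 259 genes the leaf mean under whole-plant chilling was more than 2 times that under root-only chilling, and for 219 the root mean was more than 2 times that under shoot-only chilling, where 22% and 26% of all gene models met the same condition. The group of lowest mean among the 4 conditions was root-only chilling for 257 genes in leaf (28% of all gene models) and shoot-only chilling for 251 genes in root (34.6%). The rule favours such genes, so nothing is read from these counts.

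The genes were not of 1 level or 1 organ. In control plants the median level was 19.1 CPM in leaf, 12.8 CPM in root, 17.6 CPM in top crown and 26.5 CPM in bottom crown, beside medians of 9.52, 12.7, 14.0 and 12.5 CPM over all genes tested in the same tissues. These tables were scaled separately, so levels set across tissues are approximate. The control mean was highest in leaf for 83 genes, in bottom crown for 75, in top crown for 69 and in root for 32. Leaf control was at least 4 times root control for 66 genes, the reverse held for 29, and 164 lay between. Both organs had at least 10 CPM for 114 genes, while 97 were under 5 CPM in leaf or root, where the added 1 CPM makes the ratio smaller than the change in level.

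The limit cut through a continuous range. Just inside it in leaf were Zm00001d022264 (log2 ratio -1.004; 830 CPM in control, 414 CPM under root-only chilling) and Zm00001d039059 (-1.02). Just outside were Zm00001d015348 and Zm00001d002384, both at -0.99. In root, Zm00001d029197 (-1.001) and Zm00001d038740 (-1.005) lay just inside, and Zm00001d006866 (-0.997) and Zm00001d012607 (-0.989) just outside.

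Levels in single libraries are given for the 8 genes with the highest control level in whichever of leaf and root was lower. Zm00001d013367 had 1334, 1059 and 1463 CPM in leaf control and 425, 503 and 597 CPM under root-only chilling. Its root values were 2109, 1066 and 1439 CPM in control and 684, 589 and 790 CPM under shoot-only chilling. Both low groups were clear of their controls. Where its organ was chilled it was not low: the leaf had 2192, 1976 and 1626 CPM under shoot-only chilling, all above the control libraries, and the root had 2067, 1751 and 2403 CPM under root-only chilling, overlapping control.

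Zm00001d048795 had the deepest decrease in leaf among the 8, from 2914, 2435 and 3087 CPM in control to 283, 344 and 329 CPM under root-only chilling. In root it went from 287, 125 and 163 CPM in control to 54.7, 58.4 and 41.5 CPM under shoot-only chilling. The groups lay farther apart in leaf than in root and overlapped in neither. Leaf values under shoot-only chilling were 2747, 2221 and 2023 CPM, and replicates 2 and 3 lay under every control library.

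Zm00001d017288 had the deepest decrease in root among the 8. Its root levels were 800, 811 and 624 CPM in control and 67.1, 73.7 and 71.5 CPM under shoot-only chilling. Leaf levels were 352, 222 and 373 CPM in control and 117, 184 and 119 CPM under root-only chilling. The root groups were far apart, whereas the leaf groups were separated by a small gap.

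Zm00001d022264, the gene nearest to the leaf limit, had leaf values of 836, 834 and 821 CPM in control and 305, 495 and 441 CPM under root-only chilling. In root it had 823, 662 and 639 CPM in control and 229, 222 and 236 CPM under shoot-only chilling. The control libraries of leaf and the low libraries of root each lay close together, and no groups overlapped.

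Zm00001d002451 had 212, 233 and 186 CPM in leaf control and 47.0, 51.3 and 77.3 CPM under root-only chilling. Its root values were 638, 481 and 452 CPM in control and 278, 203 and 204 CPM under shoot-only chilling. Zm00001d049179 had 158, 82.3 and 193 CPM in leaf control and 55.8, 44.5 and 46.8 CPM under root-only chilling. Control replicate 2 of leaf was the library nearest to the low group for the latter gene. In root, Zm00001d049179 had 435, 253 and 373 CPM in control and 155, 120 and 135 CPM under shoot-only chilling.

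For Zm00001d029499 the leaf had 285, 263 and 386 CPM in control and 65.6, 109 and 94.2 CPM under root-only chilling, and the root had 216, 164 and 216 CPM in control and 82.2, 112 and 97.0 CPM under shoot-only chilling. For Zm00001d033457 the leaf had 421, 378 and 493 CPM in control and 114, 150 and 162 CPM under root-only chilling. The root of Zm00001d033457 had 504, 234 and 377 CPM in control and 160, 128 and 144 CPM under shoot-only chilling. All 8 genes were lower in every library of the warm organ than in every control library of that organ.

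**Figure D3:**
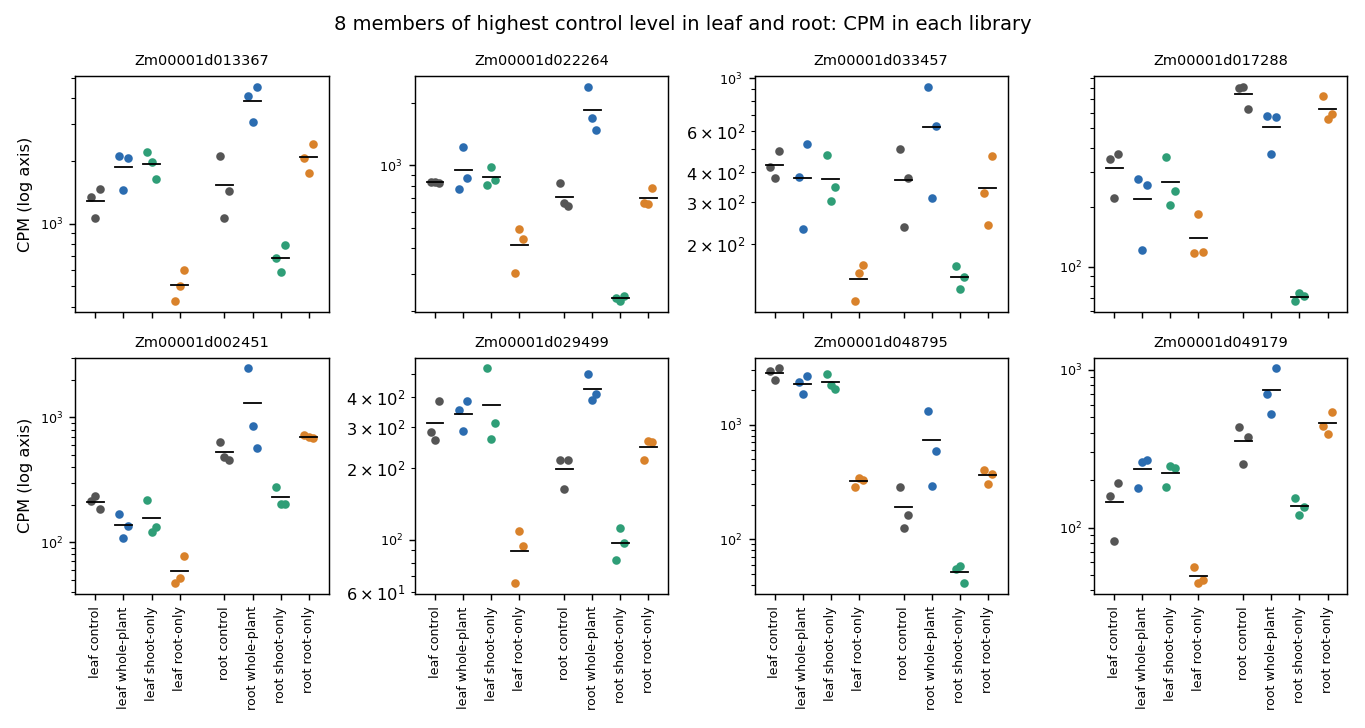
CPM on log axes in each leaf and root library (points) with the mean of 3 (bars) for the 8 genes of highest control level. In each panel the leaf under root-only chilling and the root under shoot-only chilling lie below their controls, and the root under whole-plant chilling lies highest among root groups for all but Zm00001d017288, whose control is highest.

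Some genes of low level were not detected at all in a warm organ. Zm00001d025519 had no counts in the 3 leaf libraries of root-only chilling, beside 0.617, 0.848 and 1.80 CPM in leaf control. In root, Zm00001d044110 and Zm00001d023430 had no counts in the 3 shoot-only libraries, beside 2.63, 1.99 and 1.47 CPM and 1.93, 1.07 and 0.817 CPM in root control. At these levels the controls themselves rest on few counts.

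Tests were possible in leaf and root under whole-plant chilling, and in the crown, whose libraries the rule did not use. Each tissue was fitted over all its genes with edgeR's quasi-likelihood test on raw counts, and a gene was called at a Benjamini-Hochberg adjusted p under 0.05. Changes below are log2 fold changes of that fit with their standard errors (SE). Percentages of all genes tested also come from that fit. Counts for any other fit stand without such a percentage and show only how calls depend on the fit. This covers scaling by library size alone, single libraries left out and the further settings listed at the end. Genes named for the size of a change against control were required to show no overlap between chilled and control libraries. That separation was therefore fixed by the choice. Comparisons of a tissue share its control libraries, so they are set side by side and not overlapped. The design text calls replicates biological repeats without saying more, so a p-value here reflects only the spread of libraries within groups. That spread was estimated over all 12 libraries of a tissue, or all 24 crown libraries for interactions, with information shared across genes. It is therefore not the spread of the compared groups alone. In leaf and root it also draws on the shoot-only and root-only libraries that the rule used.

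In leaf, whole-plant chilling lowered 56 of the 259 genes, where 14.3% of all genes tested were called lower, and raised 15, where 15.8% of all genes were called higher. Of the 259, 245 passed the filter on low counts and were tested. Their median change was -0.33, beside 0.00 over all genes tested. The 3 control libraries here also served the rule, and choosing genes that stood high in them favours lower calls. Scaling by library size alone moved the split to 86 lower and 4 higher, with the median of all genes at -0.21. Leaving out single libraries gave 35 to 54 lower and 6 to 13 higher, with the fewest lower calls without control replicate 3 and the fewest higher calls without control replicate 1.

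The leaf decreases named here met the conditions on level and overlap. Larger called decreases did not meet them, such as -1.96 for Zm00001d005823 and -1.81 for Zm00001d044110 (edgeR adjusted p = 0.023 and 0.014). Zm00001d019260 had 57.2, 43.5 and 53.1 CPM in leaf control and 26.5, 14.3 and 18.7 CPM under whole-plant chilling, with no overlap, and fell by 1.35 on the log2 scale (SE 0.21, edgeR adjusted p = 5.4e-05). Zm00001d003006 had 23.9, 23.2 and 22.3 CPM in control and 10.3, 7.77 and 6.48 CPM under whole-plant chilling, a change of -1.48 (SE 0.45, edgeR adjusted p = 0.025). The call of Zm00001d003006 was lost without leaf control replicate 1, 2 or 3, or whole-plant replicate 2 or 3, with edgeR adjusted p from 0.052 to 0.1.

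Leaf increases also occurred among the 259 genes. Zm00001d029744 had 8.44, 4.81 and 5.63 CPM in control and 18.6, 29.6 and 16.4 CPM under whole-plant chilling, a rise of 1.76 (SE 0.31, edgeR adjusted p = 0.00014). In the leaf under root-only chilling the same gene had 0.464, 0.510 and 0.774 CPM. Zm00001d026156 had 56.8, 80.8 and 78.8 CPM in control and 123, 234 and 163 CPM under whole-plant chilling, a rise of 1.28 (SE 0.20, edgeR adjusted p = 5.2e-05). It had 9.17, 8.55 and 8.67 CPM under root-only chilling. Both genes thus had their highest leaf mean when the whole plant was chilled, and the rule favours their low values under root-only chilling. For Zm00001d029744 the leaf values under shoot-only chilling, 7.98, 10.1 and 17.1 CPM, overlapped those of whole-plant chilling. Whole-plant against shoot-only chilling was not tested.

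In root, whole-plant chilling gave more higher than lower calls: 65 of the 259 genes were called higher (14.9% of all genes tested) and 20 lower (14.4%). Of the 259, 252 were tested, and their median was 0.32 beside -0.03 over all genes. The root control libraries also served the rule, which again favours lower calls. Without root whole-plant replicate 1 the counts were 55 higher and 19 lower, and they fell to 41 higher without control replicate 3 and to 10 lower without control replicate 2. No share over all genes is given for these fits, so nothing is read from them about the members. Scaling by library size alone moved the split to 35 higher and 35 lower. That scaling put the median of all genes at -0.35 and that of the 259 at -0.01. A change of scaling shifts all genes of a comparison by nearly the same amount. The distance between the medians, 0.34 beside 0.35 in the TMM-scaled fit, is therefore kept by construction, and nothing is read from it.

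Zm00001d021938 had 59.9, 58.0 and 50.3 CPM in root control and 546, 225 and 348 CPM under whole-plant chilling, a rise of 2.77 (SE 0.30, edgeR adjusted p = 7.5e-06; 2.36 without replicate 1). Under shoot-only chilling its root values were 20.6, 24.1 and 30.0 CPM. Zm00001d029983 had 22.3, 32.0 and 31.8 CPM in control, 126, 188 and 115 CPM under whole-plant chilling and 8.98, 17.1 and 7.15 CPM under shoot-only chilling. Its rise under whole-plant chilling was 2.35 (SE 0.34, edgeR adjusted p = 0.0001; 2.41 without replicate 1). For both genes the whole-plant, control and shoot-only libraries of root formed 3 separate ranges. The naming required the gap between whole-plant and control libraries, and the rule favours low shoot-only values.

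Of the 8 genes of highest control level, 6 rose in the root under whole-plant chilling by edgeR's test. Zm00001d048795 rose by 1.98 (SE 0.44, adjusted p = 0.0039), from 287, 125 and 163 CPM to 1324, 291 and 592 CPM. Zm00001d022264 rose by 1.43 (SE 0.23, adjusted p = 0.00031), from 823, 662 and 639 CPM to 2396, 1687 and 1487 CPM. In both, replicate 1 was the highest whole-plant library, and without it the rises were 1.22 and 1.18, with adjusted p of 0.011 and 0.0002. The changes of the other risen genes were 1.37 for Zm00001d013367, 1.35 for Zm00001d002451, 1.16 for Zm00001d029499 and 1.12 for Zm00001d049179, with 1.32 for Zm00001d013367, 1.02 for Zm00001d029499 and 1.14 for Zm00001d049179 without replicate 1. For Zm00001d002451 the whole-plant libraries had 2476, 848 and 565 CPM, and without replicate 1 its change was 0.45 (edgeR adjusted p = 0.16). Its call was also lost without control replicate 2 (adjusted p = 0.064) or 3 (0.08) and with library size alone (0.057). The changes of Zm00001d033457 (0.78, edgeR adjusted p = 0.12) and Zm00001d017288 (-0.52, edgeR adjusted p = 0.091) did not pass. Without whole-plant replicate 2, Zm00001d033457 passed (1.11, adjusted p = 0.02), and without replicate 1, Zm00001d017288 passed as lower (-0.65, adjusted p = 0.037).

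Among the root decreases, Zm00001d019260 went from 115, 133 and 112 CPM in control to 8.99, 25.2 and 35.4 CPM under whole-plant chilling, and fell by 2.33 (SE 0.32, edgeR adjusted p = 6.7e-05), or by 1.98 without replicate 1. Its root values under shoot-only chilling were 50.8, 46.0 and 40 CPM, so here whole-plant chilling gave the lower level. Zm00001d042365 went from 61.5, 59.0 and 70.6 CPM to 18.9, 19.7 and 23.7 CPM, and fell by 1.58 (SE 0.17, edgeR adjusted p = 9.5e-06), or by 1.54 without replicate 1. Zm00001d019260 is the only gene named by the rule as lowered in both leaf and root under whole-plant chilling.

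Leaf and root were fitted on separate libraries. Of the genes raised in root and those lowered in leaf by whole-plant chilling, 8 were shared, which is 12.3% of the former and 14.3% of the latter. Those raised in both organs numbered 10 (15.4% of the root calls and 66.7% of the leaf calls), and 5 were lowered in both (25% and 8.93%). The number lowered in root and raised in leaf was 0 by edgeR, with 20 and 15 members called. Among all genes tested, those shared were 3.13% of the lower root calls and 3.39% of the higher leaf calls. Nothing is read from the 0. Over all genes, the shares of root and leaf calls were 3.07% and 3.8% for raised in root and lowered in leaf, 43.5% and 48.7% for raised in both, and 26.7% and 32% for lowered in both. Without root whole-plant replicate 1 the members shared were 5, 10, 5 and 0. Whether leaf and root responses differ was not tested.

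**Figure D4:**
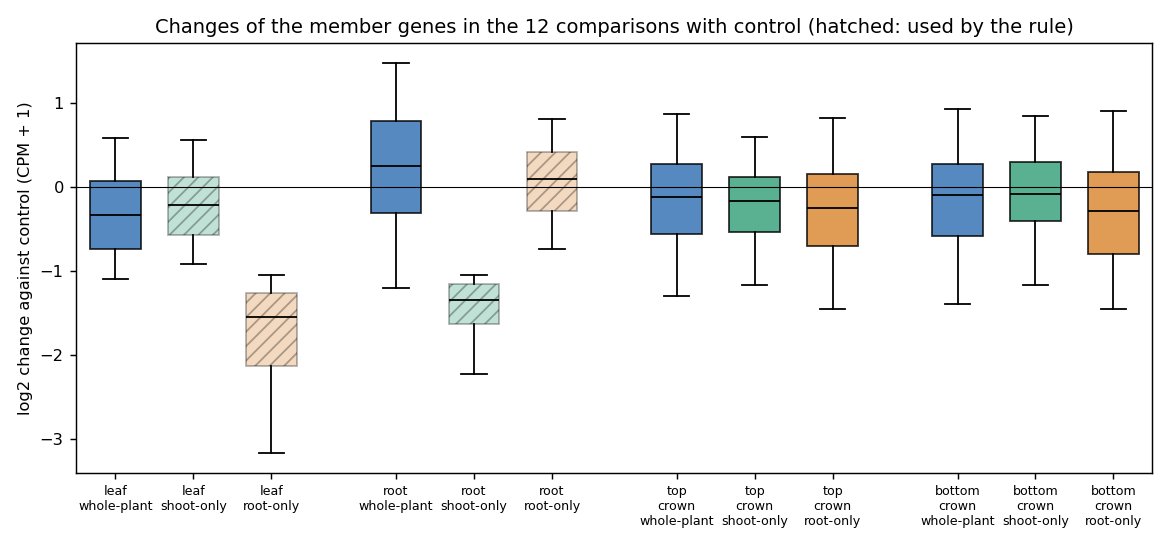
Boxes show the quartiles and median of the log2 change against control (CPM + 1) over the 259 genes, and whiskers the 5th and 95th percentiles, for 12 comparisons. Hatched boxes were used by the rule. The unchilled organs stand at medians of -1.54 and -1.34, the root under whole-plant chilling has a median of 0.25 (-0.05 when scaled by library size alone), and the crown medians lie from -0.28 to -0.09.

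In the crown, whose libraries had no part in the choice, median log2 changes of CPM + 1 ran from -0.17 to -0.09 under whole-plant and shoot-only chilling of either part. Under root-only chilling they were -0.25 in top crown and -0.28 in bottom crown. All-gene medians lay between -0.04 and 0 in the crown.

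Root-only chilling gave the most calls. In top crown 73 of the 259 genes were lower (18.1% of all genes tested) and 24 higher (17.8%), with 229 of the 259 tested. In bottom crown 74 were lower (18.0%) and 32 higher (21.4%), with 254 tested. Scaling by library size alone gave 118 lower and 18 higher in bottom crown. The share of all genes called under that scaling is not given, so nothing is read from this about the members. Without top crown control replicate 3 the 24 higher calls became 15. Lower calls in both parts numbered 50, or 68.5% of the top crown calls and 67.6% of the bottom crown calls, and higher calls in both numbered 15 (62.5% and 46.9%). Over all genes tested the shares were 56.8% and 53.9% for lower calls and 66.4% and 52.2% for higher calls. Across genes, the changes in the 2 parts had a Pearson r of 0.682 over 229 members and 0.779 over 16954 genes, given as a description. The 2 crown parts do not share libraries, but may share plants.

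**Figure D5:**
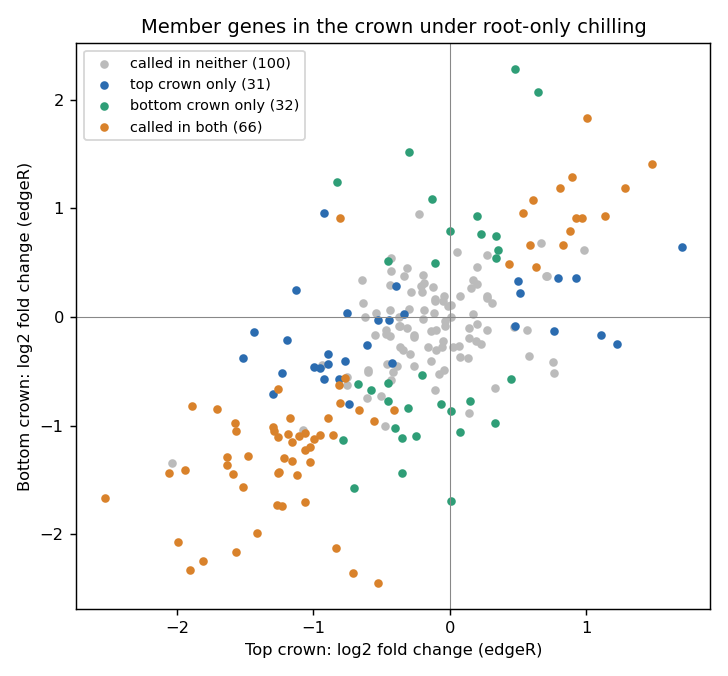
Each point is 1 of the 229 genes tested in both crown parts, with edgeR log2 fold changes under root-only chilling in top crown (horizontal) and bottom crown (vertical). Colours show calls at an adjusted p under 0.05: 66 genes in both parts, 31 in top crown alone, 32 in bottom crown alone and 100 in neither. Of those called in both, 50 were lower in both, 15 higher in both, and 1 lower in top and higher in bottom crown.

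Zm00001d010434 had 82.5, 100 and 54.8 CPM in top crown control and 12.7, 12.1 and 16.7 CPM under root-only chilling, a fall of 2.53 (SE 0.24, edgeR adjusted p = 5.4e-07). In bottom crown it fell by 1.67 (SE 0.44, edgeR adjusted p = 0.011). Zm00001d017288 had 28.7, 35.9 and 26.2 CPM in top crown control and 3.04, 8.79 and 10.6 CPM under root-only chilling, and fell by 2.06 (SE 0.28, edgeR adjusted p = 2.3e-05). It also fell in top crown under whole-plant chilling (by 2.16, edgeR adjusted p = 2e-05) and shoot-only chilling (by 1.58, edgeR adjusted p = 0.00058). For this gene the 9 chilled top crown libraries lay between 3.04 and 11.0 CPM, all under control.

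In bottom crown, Zm00001d032197 went from 179, 249 and 297 CPM in control to 22.1, 46.4 and 61.9 CPM under root-only chilling, and fell by 2.45 (SE 0.33, edgeR adjusted p = 0.00015). This gene had the highest leaf level of the 259, with 8898, 11977 and 11721 CPM in leaf control and 3825, 4959 and 3889 CPM in leaf under root-only chilling. Zm00001d038542 had 18.2, 23.3 and 17.5 CPM in bottom crown control and 3.34, 3.79 and 4.12 CPM under root-only chilling, a fall of 2.36 (SE 0.23, edgeR adjusted p = 9.7e-07). Both were also called in top crown, with changes of -0.52 and -0.71, but without top crown root-only replicate 1 neither was (-0.27 and -0.56, edgeR adjusted p 0.2 and 0.066). Zm00001d032197 also lost its top crown call without any single control library or without root-only replicate 2 (adjusted p from 0.06 to 0.089).

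Several of the genes rose in the crown under root-only chilling. The rule required every gene of the set to be low in the leaf of this treatment. Leaf values beside these rises are therefore a description, and nothing is read from the contrast. Zm00001d013468 had 122, 152 and 102 CPM in bottom crown control and 540, 526 and 490 CPM under root-only chilling, a rise of 2.07 (SE 0.16, edgeR adjusted p = 9.7e-08). In leaf the same condition took it from 109, 94.4 and 101 CPM to 9.52, 9.06 and 20.4 CPM. Zm00001d026156 rose in bottom crown by 2.28 (SE 0.51, edgeR adjusted p = 0.006), from 8.30, 15.8 and 7.75 CPM to 76.4, 50.0 and 26.6 CPM. Neither pair of bottom crown groups overlapped, as the naming required.

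In top crown, Zm00001d013135 went from 3.82, 2.58 and 2.87 CPM in control to 12.3, 8.79 and 9.28 CPM under root-only chilling (a rise of 1.70, SE 0.27, edgeR adjusted p = 8.4e-05). Zm00001d031561 went from 5.42, 7.21 and 5.24 CPM to 18.7, 14.5 and 16.9 CPM (a rise of 1.48, SE 0.20, edgeR adjusted p = 1.6e-05). Of the 8 genes of highest control level, Zm00001d022264 rose under root-only chilling in both crown parts, by 1.28 in top crown (edgeR adjusted p = 1.2e-06) and 1.19 in bottom crown (edgeR adjusted p = 0.00013). Its bottom crown values were 753, 939 and 1030 CPM in control and 2121, 2188 and 1794 CPM under root-only chilling.

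Shoot-only chilling gave 52 lower (12.5% of all genes tested) and 15 higher (11.4%) in top crown. In bottom crown it gave 38 lower (11.8%) and 32 higher (14.4%). Library size alone moved these splits to 72 and 8 in top crown and to 51 and 19 in bottom crown, again without a share over all genes. The parts shared 23 lower calls (44.2% of those in top crown and 60.5% of those in bottom crown) and 12 higher calls (80.0% and 37.5%), beside 50.1% and 50% of lower and 65.8% and 49.4% of higher calls over all genes. In bottom crown, the 32 higher calls became 18 without shoot-only replicate 3 and 21 without control replicate 1, and the 38 lower calls became 25 without control replicate 3. In top crown, the 52 lower calls became 33 without shoot-only replicate 3, and the 15 higher calls became 8 or 9 without control replicate 1 or 3 or shoot-only replicate 3.

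Zm00001d029744 was named as lower in both parts under shoot-only chilling. Its top crown values were 17.0, 14.6 and 7.27 CPM in control and 2.99, 1.77 and 3.27 CPM under shoot-only chilling, a change of -2.31 (SE 0.35, edgeR adjusted p = 0.00016). Its bottom crown values were 149, 66.1 and 89.3 CPM and 13.7, 16.1 and 9.66 CPM, a change of -2.90 (SE 0.66, edgeR adjusted p = 0.012). Without bottom crown shoot-only replicate 3 the adjusted p was 0.052. This is the gene with the largest rise under whole-plant chilling in leaf among those named there.

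Of the other named decreases under shoot-only chilling, Zm00001d033347 fell by 2.09 in top crown (SE 0.32, edgeR adjusted p = 0.00018), from 14.8, 14.9 and 14.0 CPM to 4.19, 2.55 and 3.74 CPM. Zm00001d007349 fell by 2.85 in bottom crown (SE 0.55, edgeR adjusted p = 0.0034), from 18.1, 9.48 and 22.8 CPM to 3.82, 1.43 and 1.44 CPM. Control and chilled libraries did not overlap for either, as the naming required.

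Increases under shoot-only chilling included Zm00001d050988 in bottom crown, from 20.7, 29.8 and 22.8 CPM to 74.4, 60.8 and 73.2 CPM (a rise of 1.54, SE 0.19, edgeR adjusted p = 4.2e-05). Zm00001d025338 rose in top crown from 6.85, 6.87 and 4.90 CPM to 17.8, 19.0 and 12.1 CPM (by 1.36, SE 0.25, edgeR adjusted p = 0.0008). Zm00001d013135 rose in top crown by 2.06 (SE 0.27, edgeR adjusted p = 4e-05), to 13.6, 15.9 and 10.3 CPM. Its bottom crown change of 1.18 (SE 0.37, edgeR adjusted p = 0.027) was lost with library size alone (adjusted p 0.054) and without bottom crown control replicate 1 or 2 or shoot-only replicate 2 or 3 (adjusted p from 0.055 to 0.11).

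Whole-plant chilling gave 54 lower (19.5% of all genes tested) and 35 higher (16.8%) in top crown, and 60 lower (17.4%) and 40 higher (17.6%) in bottom crown. Library size alone moved both splits to 89 and 18, again without a share over all genes. The parts shared 34 lower calls (63.0% and 56.7%) and 21 higher calls (60% and 52.5%), beside 55.2% and 58.3% of lower and 59.8% and 53.6% of higher calls over all genes. Of the 65 genes raised in root by whole-plant chilling, 24 were also raised in bottom crown (36.9%, and 60% of the bottom crown calls) and 19 in top crown (29.2%, and 54.3% of the top crown calls). The shares over all genes were 54.7% and 46.3% for bottom crown and 38.8% and 36.6% for top crown. Without root whole-plant replicate 1, 23 of 55 were shared with bottom crown and 15 with top crown.

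Zm00001d012245 had 16.7, 13.2 and 16.2 CPM in top crown control and 2.02, 1.72 and 4.19 CPM under whole-plant chilling, and fell by 2.59 (SE 0.31, edgeR adjusted p = 4.9e-06). Under shoot-only chilling it had 15.2, 13.5 and 18.7 CPM, which overlaps control. Zm00001d044110 fell by 2.27 in top crown (SE 0.37, edgeR adjusted p = 0.00012), from 10.4, 20.3 and 10.1 CPM to 2.92, 3.64 and 1.98 CPM. In bottom crown Zm00001d017994 fell by 2.44 (SE 0.23, edgeR adjusted p = 1.5e-06), from 24.9, 27.3 and 30.1 CPM to 5.43, 5.03 and 4.60 CPM.

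Zm00001d032197 fell by 2.21 in bottom crown under whole-plant chilling (SE 0.33, edgeR adjusted p = 0.00037), to 44.8, 54.1 and 58.1 CPM. In leaf the same condition left it at 9681, 12835 and 12415 CPM, overlapping control (change 0.11, edgeR adjusted p = 0.68). The decrease was thus seen in the crown and not detected in the leaf, where the level was highest. Whether the responses of leaf and crown differ was not tested.

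Among increases, Zm00001d026156 rose in top crown from 1.75, 5.15 and 2.37 CPM to 18.7, 11.9 and 18.3 CPM (by 2.35, SE 0.32, edgeR adjusted p = 2.2e-05). Zm00001d043431 rose there from 11.5, 12.9 and 10.1 CPM to 43.6, 34.4 and 35.7 CPM (by 1.68, SE 0.23, edgeR adjusted p = 2.6e-05). In bottom crown Zm00001d029499 rose from 221, 242 and 314 CPM to 653, 666 and 665 CPM (by 1.35, SE 0.17, edgeR adjusted p = 1.7e-05), and Zm00001d013468 rose by 1.30 (SE 0.16, edgeR adjusted p = 1.4e-05) to 264, 361 and 303 CPM. The chilled libraries of each lay above all of its control libraries, as the naming required.

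For the 65 genes raised in root by whole-plant chilling, the median control level was 25 CPM in root and 44.1 CPM in leaf, against 16.7 and 7.68 CPM for the 20 lowered genes and 8.78 and 17.6 CPM for the 174 that were not called. Genes of higher level are more readily called, so these levels are a description of the calls. Without whole-plant replicate 1 the classes held 55, 19 and 185 genes, and the root control medians were 25 CPM for raised, 29.9 CPM for lowered and 9.32 CPM for uncalled genes. In bottom crown under whole-plant chilling, the raised genes had a median log2 change (CPM + 1) of 0.26, the lowered genes -0.93 and the uncalled genes -0.18 (0.41, -1.06 and -0.16 for the classes without that replicate). In top crown the medians of the same classes were 0.20, -0.62 and -0.21. No such medians over all genes are given, so nothing is read from these about the members.

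Some of the 259 genes were called as differing in response between crown parts, by the interaction of crown part and chilling. This used 1 edgeR fit of the 24 crown libraries. With 3 libraries a group, a gene that was not called may still differ. Under whole-plant chilling the change in top crown was below that in bottom crown for 4 genes (0.464% of all genes tested) and above it for 2 (0.311%). Under root-only chilling the numbers were 4 (1.87%) and 6 (1.12%). Under shoot-only chilling both were 0 (0.0766% and 0.0204%) by edgeR, where 1736 of the 19595 genes tested had an unadjusted p under 0.05, and DESeq2 called 2 lower and 0 higher.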

How the data were processed

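Per the labels' protocols, Trizol RNA went into the forward version of Lexogen's QuantSeq 3′ kit, which counts transcript ends, so length plays no part in the counts. STAR and edgeR are named, without versions, in the submitters' processing notes. Which genome build, counting tool and strand setting were used, and whether reads carried molecular identifiers, is not given in the sources used here. Each library has a file of raw gene counts, deposited by the authors, over 46430 identifiers of which 44146 were nuclear gene models. The authors also deposited 1 table per tissue called CPM, treated as a scaled signal because its columns do not sum to a common total. Each column was the raw count times 1 constant (largest relative deviation 5.2e-10), and genes absent from a table were taken as 0 when the rule was applied. Elsewhere their counts were scaled by the same constant.

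The genes and lists were chosen with earlier results of these data known. The limits were a log2 ratio of -1 and an absolute ratio of 1 with a pseudocount of 1. Each tissue's 12 raw count columns were fitted in edgeR 4.0.16 under R 4.3.3 (low-count filter filterByExpr, TMM factors, robust quasi-likelihood, Benjamini-Hochberg adjustment over all genes tested). A joint fit of the 24 crown libraries compared top and bottom crown. The fit was tested on simulated data with 200 changed genes, where larger changes were recovered more fully than smaller ones, so calls of small changes are incomplete. Counts of members called are over all 259, and a member that did not pass filterByExpr counts as not called. A member that passed through 1 high group alone can add to the calls.

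Named genes were the 8 of highest control level in the lower of leaf and root, up to 2 lower and 2 higher per tested comparison (the largest changes among calls whose groups did not overlap and where either group reached 10 CPM), 1 per direction for interactions without the overlap condition, those nearest the limits and those without counts. A few further values of these genes were picked after they were seen. The name table held 49888 genes and matched 0 members, so the gene lists and the tissue markers stayed empty, and tissue identity was not checked.

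Replicates of a group differed by chi-square values from 3.73 to 34.7 per degree of freedom, so none was treated as a copy. Replicate numbers were checked for pairing through the correlation of deviations from group means: in leaf whole-plant chilling against control every pair was over 0.1 (0.108 to 0.218), and no other tested comparison met this. Alternatives were DESeq2 1.42.0, library size alone, DESeq2 size factors within edgeR, no filter, a replicate block, the 6 libraries compared, single libraries left out, and other settings of the rule.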

Additional observations from a re-analysis of the deposited data

Results flagged for a closer look

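The crown parts differed in response by the interaction test of edgeR (24 libraries) for some of the 259 genes. Under whole-plant chilling the log2 change was lower in top than in bottom crown for 4 genes (0.464% of all genes tested) and higher for 2 (0.311%). Under root-only chilling the counts were 4 (1.87%) and 6 (1.12%). With single libraries left out, they ran from 1 to 4 and 1 to 3 under whole-plant chilling, and from 2 to 7 and 4 to 6 under root-only chilling.

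Zm00001d013468 had a top minus bottom difference of -1.58 under whole-plant chilling (SE 0.34, edgeR adjusted p = 0.025). Its means went from 61.1 to 50.9 CPM in top crown and from 125 to 309 CPM in bottom crown. The call was lost without top crown control replicate 2, bottom crown control replicate 1 or 3, top crown whole-plant replicate 1 or 3, or bottom crown whole-plant replicate 2 (adjusted p from 0.058 to 0.08). Zm00001d025338 had a difference of 1.40 (SE 0.29, edgeR adjusted p = 0.017), with means from 6.21 to 18.9 CPM in top crown and from 54.8 to 62.1 CPM in bottom crown. Its call was lost without control replicate 3 of top crown (adjusted p = 0.064) or of bottom crown (0.059).

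Under root-only chilling Zm00001d017700 had a difference of -1.78 (SE 0.38, edgeR adjusted p = 0.0088). It had 4.30, 5.67 and 4.73 CPM in top crown control and 3.04, 4.04 and 5.01 CPM in chilled top crown, which overlap. In bottom crown it had 4.07, 3.06 and 3.80 CPM in control and 10.4, 11.7 and 8.75 CPM when chilled, which do not. Zm00001d032197 had a difference of 1.97 (SE 0.40, edgeR adjusted p = 0.0074), its mean going from 188 to 133 CPM in top crown and from 242 to 43.5 CPM in bottom crown.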

How the results depend on the processing

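The number of genes the rule finds depends on its settings: 169 with a pseudocount of 2, 51 with both lower limits at -1.5, 347 with a pseudocount of 0.5 and 208 with library size alone, of which 161, 51, 240 and 169 are among the 259. Leaving out single libraries gave 224 to 289 genes. Library size alone moved the counts of members called lower and higher to 86 and 4 in leaf, 35 and 35 in root, 89 and 18 under whole-plant chilling in top crown and again 89 and 18 in bottom crown, and 118 and 18 under root-only chilling in bottom crown. Higher calls under shoot-only chilling became 8 in top and 19 in bottom crown, and the interaction under root-only chilling gave 10 higher. The 6 libraries of the root comparison alone gave 11 lower and 43 higher. For the interaction under shoot-only chilling DESeq2 gave 2 lower and no filter also 2. Library size alone also moved the median of all genes, to -0.21 in leaf and -0.35 in root. Its counts are given without shares over all genes, so they show dependence on scaling and nothing about the members. The counts of calls under the other settings and with single libraries left out also lack such shares, and nothing is read from them about the members. For the other settings the cause was not tested.

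Leaving out single libraries gave, as lower and higher calls, 35 to 54 and 6 to 13 in leaf, 10 to 19 and 41 to 66 in root, 38 to 51 and 28 to 37 (top crown, whole-plant), 33 to 45 and 8 to 14 (top crown, shoot-only), 64 to 69 and 15 to 25 (top crown, root-only), 49 to 58 and 28 to 38 (bottom crown, whole-plant), 25 to 30 and 18 to 31 (bottom crown, shoot-only), and 61 to 69 and 25 to 28 (bottom crown, root-only). The interactions gave 1 to 4 and 1 to 3 under whole-plant, 0 to 1 and 0 to 0 under shoot-only, and 2 to 7 and 4 to 6 under root-only chilling. Changes over 1.5 times came in leaf lower calls without control replicate 1 (37) or 3 (35) or whole-plant replicate 2 (36) or 3 (37), and in leaf higher calls without control replicate 1 (6), 2 (9) or 3 (9) or whole-plant replicate 3 (8). In root they came in lower calls without control replicate 1 (11) or 2 (10) or whole-plant replicate 2 (13), and in higher calls without control replicate 3 (41). The crown cases are given with their counts. In the interactions, whole-plant lower calls became 1 or 2 without top crown control 1 or 2, bottom crown control 1 or 3, top crown whole-plant 1 or 3, or bottom crown whole-plant 2, and higher calls became 1 without control 3 of either part. Shoot-only lower calls became 1 without bottom crown control 2 or shoot-only 2, and root-only lower calls became 2 without top crown control 2 and 7 without bottom crown root-only 3.

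With the replicate block, leaf gave 63 lower and 18 higher. Every same-number pair there was over 0.1, but the labels do not say that the numbers pair samples. The block gave 24 and 74 in root, and it moved no count of calls by over 1.5 times. Its counts stand without shares over all genes, so nothing is read from them about the members. Same-number correlations ran from -0.33 in top crown to 0.519 in root. In no tested comparison, leaf included, did every sample correlate best with its own number. For single genes, 52 pairs of gene and comparison were refitted under 640 alternatives, of which 601 kept direction and side of the threshold, 33 lost and 4 gained the call, and 2 turned sign. These were the uncalled leaf change of Zm00001d032197 under whole-plant chilling, at -0.11 with library size alone and from -0.017 (without control replicate 1) to 0.226 with single libraries left out. Besides losses given with the genes, Zm00001d002451 in root lost its call with the 6 libraries compared, and Zm00001d032197 in top crown with DESeq2, with DESeq2 size factors and with the 6 libraries compared. Zm00001d033457 in root gained it with the block (0.74).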
